A study of Mus musculus with 7 samples.

Results

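Transcripts of 6 genes of the phagocyte NADPH oxidase (Cybb, Cyba, Ncf1, Ncf4, Rac1 and Rac2) were followed in Tim4+ resident macrophages of the mouse peritoneal cavity. They were taken by symbol from a deposited table of read counts for 57010 genes, and all 6 were found there and were among the 15981 genes tested. Of the 7 libraries, 3 came from C57BL/6 mice in steady state and 4 from C57BL/6 mice that had received m204 MTO by injection and were sampled on day 12. MTO is not spelled out in the labels, the series title speaks of colorectal cancer in the peritoneum, and the labels used here give no age. Live cells were gated on Tim4, CD11b and MHC class II by flow cytometry, with a purity given as above 97%, and their poly-A RNA was sequenced. The extraction protocol counts 3 biological replicates per condition, whereas the titles list 4 at day 12. Levels are counts-per-million (CPM) scaled by the trimmed mean of M-values (TMM), which corrects for library composition. Each ± is an SD, with n = 3 in steady state and n = 4 at day 12.

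The phagocyte NADPH oxidase moves electrons from NADPH across a membrane onto oxygen and so makes superoxide in the phagosome or outside the cell. Cybb encodes its catalytic membrane chain and Cyba the smaller chain that stabilises it. Ncf1 and Ncf4 encode cytosolic subunits, and Rac1 and Rac2 are small GTPases that join the complex in their GTP-bound form. Transcript levels do not measure assembly of the complex or its output of superoxide, and not every component of the complex is analysed here.

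At day 12, Ncf4 transcripts were 1.76-fold higher than in steady state, and Ncf4 was the only one of the 6 genes that passed the test. Ncf1 lay higher and Cybb lower in every day 12 library than in any of steady state, but neither passed. Cyba, Rac1 and Rac2 overlapped between the groups. With edgeR's quasi-likelihood test and an adjusted p of 0.05 as the threshold, 1 of 6 genes rose and 0 fell. Of all genes tested, 10.1% rose, 10.2% fell and 20.3% passed in either direction, so the share among the oxidase genes was near that of all genes. At an unadjusted p of 0.05, 2 of the 6 were higher and 0 lower with edgeR, against 2684 higher and 2737 lower of 15981 genes tested. Both DESeq2 and limma-voom called 1 of the 6 higher and 0 lower. Over all genes, DESeq2 called 2051 higher and 1930 lower of 27238 with a read, and limma-voom 1472 and 1749 of 15981. Of the 6, 2 lay wholly above their steady-state range at day 12 and 1 wholly below it, against 16.5% and 18.5% of all genes tested. The median log2 fold change of the 6 was 0.21, with a range from -0.29 to 0.82, beside a median of 0.00309 over all genes tested.

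**Figure D1:**
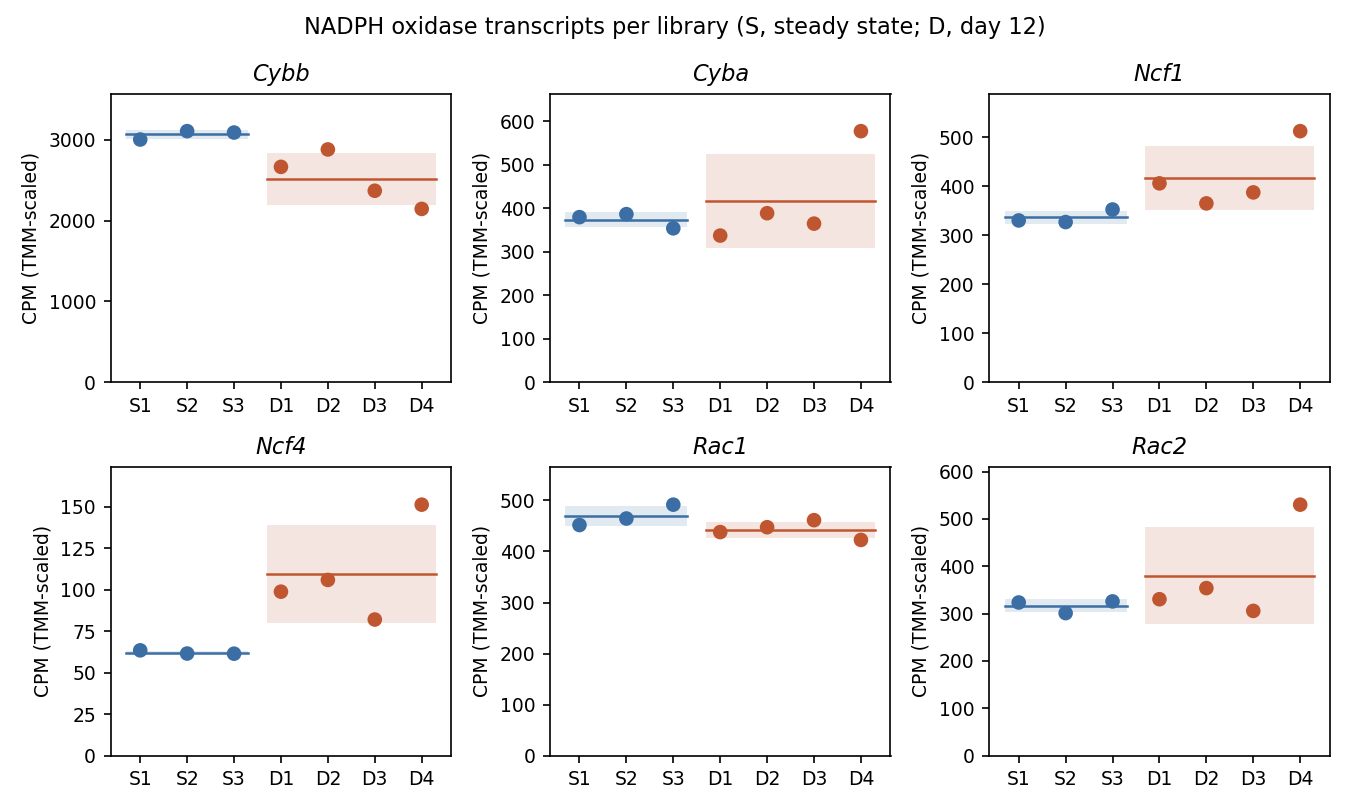
TMM-scaled CPM (vertical axes, each from 0) of the 6 genes in steady-state libraries 1 to 3 (S) and day 12 libraries 1 to 4 (D). Points are libraries, lines are group means and bands are 1 SD; the highest Ncf4 point, 151 CPM, is day 12 replicate 4, and the 3 steady-state Ncf4 points lie between 61.5 and 63.5 CPM.

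Library totals ranged from 32077050 to 38586694 counts, which put 3 counts, the floor of detection, at 0.0754 to 0.0958 CPM. The 6 genes held 1924 to 114612 counts per library, so counting error was at most 2.28% of a value. Day 12 replicate 4 was the library most often extreme at day 12. It was the highest or the lowest of the 4 day 12 libraries for 69.3% of genes tested, against 39.5% to 46.6% for the others. Its mitochondrial genes took 0.858% of counts, against 1.67% to 1.79% in the other day 12 libraries and 1.11% to 1.25% in steady state. Replicate 2 also differed from replicates 1 and 3. Between pairs of libraries, the chi-square of counts per gene was 28.3 for day 12 replicates 1 and 3. For replicate 2 against replicates 1 and 3 it was 112.5 and 160.2. For replicate 4 against the other day 12 libraries it was 118.2 to 217.1, and between steady-state libraries 15.7 to 19.8. Fits without replicate 4 therefore still hold the difference between replicate 2 and replicates 1 and 3. Markers of resident peritoneal macrophages summed to 28727 to 30555 CPM in steady state and 31925 to 32815 CPM at day 12. Of these 12 markers, 4 were higher and 2 lower, beside 10.1% and 10.2% of all genes tested. Among the lower was Timd4, the gene of Tim4. Markers of neutrophils, which carry the same oxidase, summed to 558 to 574 CPM in steady state and 301 to 660.3 CPM at day 12. Most of that sum was Csf3r and Prtn3, at 196 and 456 CPM in day 12 replicate 4, while Ly6g, Mpo and Stfa2l1 had no read in any library and S100a9 reached at most 0.842 CPM. Of 6 neutrophil markers tested, 1 rose and 2 fell, beside 10.1% and 10.2% of all genes tested. The rise was Prtn3, from a mean of 124 to 277 CPM. The falls were Csf3r, from 440 to 160 CPM, and Mmp8, from 1.07 to 0.0462 CPM, so the sum joins moves in opposite directions. B cell markers summed to 7.42 to 11.8 CPM in steady state and 24.6 to 57.9 CPM at day 12 (11 of 12 genes tested). Those of T and NK cells summed to 0.588 to 1.16 and 1.19 to 4.47 CPM (3 of 12 genes tested). Epithelial and mesothelial markers summed to 0.140 to 0.356 and 2.17 to 3.19 CPM (2 of 12 tested), with Krt20, Cdx2 and Msln at 0. Most of this day 12 sum was Cdh1, whose mean rose from 0.129 to 2.00 CPM. Epcam averaged 0.0670 CPM at day 12, and Krt8, Wt1, Upk3b and Lrrn4 less. Monocyte markers summed to 491 to 843 and 8046 to 41873 CPM, almost all of it Chil3 at day 12. Of 7 tested, 2 rose (Chil3 and Plac8) and 2 fell, beside 10.1% and 10.2% of all genes tested. The falls were F13a1, from a mean of 464 to 12.9 CPM, and Ccr2, from 11.8 to 5.19 CPM. Dendritic cell markers summed to 29.6 to 54.9 and 65.5 to 380 CPM, mostly Cd209a (3 of 7 genes tested), with Siglech at 0. Those of eosinophils and mast cells summed to 1.82 to 1.88 and 1.66 to 3.17 CPM (2 of 10 genes tested), with Epx and Prg2 at 0. Handling genes summed to 966 to 1297 and 1499 to 1777 CPM, with 7 of 11 higher and 2 lower, where 10.1% of all genes tested rose and 10.2% fell. Fos rose from a mean of 48.6 to 251 CPM, while Hspa1a fell from 82.3 to 22.7 CPM and Hspa1b from 201 to 47.2 CPM. The part of other cells and of handling in the values below was not tested, and in bulk RNA fewer cells of a type cannot be told apart from less RNA per cell.

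Cybb, the catalytic chain (ENSMUSG00000015340, GRCm39 chromosome X, 9301491 to 9354010, minus strand), took the most counts of the set. It stood at 3003, 3107 and 3090 CPM in steady-state replicates 1, 2 and 3 and at 2665, 2881, 2369 and 2145 CPM in day 12 replicates 1, 2, 3 and 4. All 4 day 12 libraries lay below all 3 of steady state, with replicate 4 the lowest. The log2 fold change was -0.29 (95% interval -0.58 to 0.01, edgeR unadjusted p = 0.0563, adjusted p = 0.160), which did not pass, and it was -0.21 without day 12 replicate 4 (adjusted p = 0.114).

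The promoter of Cybb is shown because transcription factors that bind oxidase promoters were among the genes that changed. DNA words of 3 kinds were searched on both strands in the 250 bases before the start site: a word bound by PU.1 (GAGGAA), a word bound by interferon regulatory factors (GAAA, any 2 bases, GAAA) and a word bound by STAT factors (TTCNNNGAA). RefSeq promoters of build GRCm38.p6 were matched for 3 of the 6 genes (Cybb, Cyba and Ncf1). Cybb held the interferon regulatory factor word at 168 to 159, 124 to 115 and 29 to 20 bases before the start, and the latter word reads GAAAAGGAAA. Capitals mark these matches in chrX:9469325-9469574, minus strand, printed 5′ to 3′ on the strand of the gene.
Cybb: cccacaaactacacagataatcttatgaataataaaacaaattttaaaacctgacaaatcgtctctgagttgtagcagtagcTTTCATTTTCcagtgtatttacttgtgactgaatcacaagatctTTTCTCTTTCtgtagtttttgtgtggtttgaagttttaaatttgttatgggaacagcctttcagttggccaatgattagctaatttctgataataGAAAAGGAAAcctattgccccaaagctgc
Of 32851 promoters of the same length, 2.98% held the interferon regulatory factor word, 23.3% the PU.1 word and 7.02% the STAT word. The words were chosen after the sequences had been seen, so setting the matches beside these shares is not a test. Neither the PU.1 word GAGGAA nor the STAT word was found in this window of Cybb, and none of the 3 words in that of Cyba. Other or shorter forms of the PU.1 word were not searched. A match is a description of letters and not a measured binding site.

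Cyba, the smaller membrane chain (ENSMUSG00000006519, GRCm39 chromosome 8, 123151515 to 123159669, minus strand), stood at 380, 387 and 354 CPM in steady state and at 337, 389, 365 and 578 CPM in day 12 replicates 1, 2, 3 and 4. Replicates 1 to 3 of day 12 lay in or next to the steady-state range, and replicate 4 was 1.59-fold above their mean. The log2 fold change was 0.16 (95% interval -0.25 to 0.57, edgeR adjusted p = 0.582) with all libraries and -0.036 without day 12 replicate 4, so its direction rested on that library.

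The balance of the membrane chains was compared within libraries, where library scaling cancels. For every 100 Cybb counts there were 12.6, 12.4 and 11.5 Cyba counts in steady state, and 12.7, 13.5, 15.4 and 26.9 in day 12 replicates 1 to 4. The lowest day 12 value lay just above the highest of steady state, and replicate 4 stood far above the rest. The log2 ratio was 0.42 higher at day 12 (0.18 without day 12 replicate 4), with an exact two-sided permutation p of 0.143 over 35 splits (Benjamini-Hochberg over 3 ratios 0.2; the smallest p this design allows is 0.0286).

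Ncf1, the organising cytosolic subunit (ENSMUSG00000015950, GRCm39 chromosome 5, 134248907 to 134258479, minus strand), stood at 330.2, 327 and 353 CPM in steady state and at 406, 365, 387 and 513 CPM at day 12. The groups did not overlap, and replicate 4 was again the highest. The log2 fold change was 0.31 (95% interval 0.01 to 0.61, edgeR unadjusted p = 0.0437, adjusted p = 0.135), and it was 0.20 without day 12 replicate 4 (adjusted p = 0.0748). Ncf1 overlaps Gtf2ird2 on the other strand, whose counts were 2.67% to 4.71% of those of Ncf1, and 4.07% of the distinct 100-base words of its transcripts are shared with that gene.

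Ncf1 held one match to the interferon regulatory factor word, GAAAGTGAAA, at 82 to 73 bases before its start. It is shown in capitals in chr5:134229626-134229875 (GRCm38.p6, minus strand, printed on the strand of the gene), and a STAT word, TTCTCAGAA, overlaps it from 88 to 80.
Ncf1: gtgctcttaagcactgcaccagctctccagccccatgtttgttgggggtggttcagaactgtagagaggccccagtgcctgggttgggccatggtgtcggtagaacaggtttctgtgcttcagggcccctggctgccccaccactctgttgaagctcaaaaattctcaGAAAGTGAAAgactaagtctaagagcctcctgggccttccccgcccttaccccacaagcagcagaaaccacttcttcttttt
Of the 3 promoters searched, those of Cybb and Ncf1 held the interferon regulatory factor word, and neither gene passed the test between groups. Whether the word bears on their levels was not tested.

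Ncf4, the cytosolic subunit that binds phosphatidylinositol 3-phosphate on phagosomes (ENSMUSG00000071715, GRCm39 chromosome 15, 78129001 to 78146780, plus strand), was the gene that rose. It stood at 63.5, 61.5 and 61.5 CPM in steady state and at 98.8, 106, 82.0 and 151 CPM in day 12 replicates 1, 2, 3 and 4. Every day 12 library lay above every steady-state library, and the lowest, replicate 3, still exceeded them all. The day 12 mean was 109 ± 29.6 CPM against 62.2 ± 1.14 CPM in steady state, a log2 fold change of 0.82 with an SE of 0.19 (95% interval of the fold 1.32 to 2.36, edgeR adjusted p = 0.0144). Without day 12 replicate 4 the log2 fold change was 0.62 and the gene still passed (adjusted p = 0.00305). The call was lost without steady-state replicate 1, 2 or 3 (adjusted p = 0.0541, 0.0636 and 0.0645), with log2 fold changes of 0.85, 0.81 and 0.80. Among all genes tested Ncf4 ranked 1856 by p and 2965 by size of the fold change.

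The balance of Ncf4 and Ncf1 was compared in the same way. There were 19.2, 18.8 and 17.4 Ncf4 counts for every 100 Ncf1 counts in steady state, and 24.3, 29.0, 21.2 and 29.5 at day 12. The groups did not overlap, and replicates 2 and 4 were the highest. The log2 ratio was 0.48 higher (exact two-sided permutation p = 0.0571 over 35 splits, Benjamini-Hochberg over 3 ratios 0.171), which did not pass, and it was 0.42 higher without day 12 replicate 4.

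**Figure D2:**
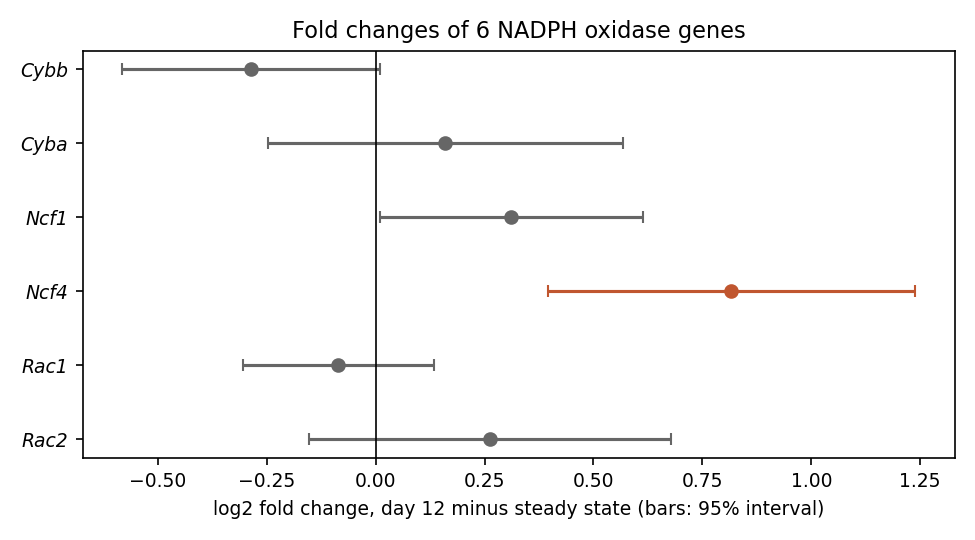
Log2 fold change of each gene, day 12 minus steady state (horizontal axis), from edgeR with all 7 libraries; bars are 95% intervals, and the line marks no change. Ncf4 (orange, 0.82) is the one gene past an adjusted p of 0.05, and the Cybb interval reaches 0.01.

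Rac1, the GTPase found in most cells (ENSMUSG00000001847, GRCm39 chromosome 5, 143489389 to 143513791, minus strand), varied least of the set at day 12. It stood at 452, 465 and 492 CPM in steady state and at 438, 448, 461 and 423 CPM at day 12. The groups overlapped, with a log2 fold change of -0.09 and a 95% interval of -0.30 to 0.13 (edgeR adjusted p = 0.583). Rac1 overlaps Daglb on the other strand over 2309 bases, and 49.2% of the distinct 100-base words of Rac1 transcripts occur in Daglb on one strand or the other. Daglb counts were 10.2% to 15.3% of those of Rac1, and since the strand setting of the counting is unknown, the Rac1 level is uncertain.

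Rac2, the GTPase of blood cells (ENSMUSG00000033220, GRCm39 chromosome 15, 78443367 to 78456983, minus strand), stood at 324, 301 and 326 CPM in steady state and at 330.5, 354, 306 and 530.3 CPM in day 12 replicates 1 to 4. Replicates 1 to 3 overlapped or lay next to the steady-state range, and replicate 4 was 1.61-fold above their mean. The log2 fold change was 0.26 (95% interval -0.15 to 0.68, edgeR adjusted p = 0.356), and 0.06 without day 12 replicate 4.

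Rac1 and Rac2 are close paralogs, so their coding sequences were compared to see whether a 100-base read can tell them apart. The longest reading frames of transcripts Rac1-201 and Rac2-201 (GENCODE M21) are each 579 bases long and differ at 133 of these, an identity of 77.0%. No 100-base word of a Rac1 transcript occurred in a Rac2 transcript. The most alike window, bases 325 to 424 of the reading frame, is shown with its 11 differences in capitals.
Rac1: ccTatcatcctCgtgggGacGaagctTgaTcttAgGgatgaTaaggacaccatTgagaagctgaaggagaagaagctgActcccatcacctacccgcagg
Rac2: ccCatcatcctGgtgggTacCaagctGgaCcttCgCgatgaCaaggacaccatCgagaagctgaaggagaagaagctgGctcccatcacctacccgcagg
Other windows of that length differed at up to 37 bases. For every 100 Rac1 counts there were 71.6, 64.8 and 66.3 Rac2 counts in steady state and 75.5, 79.1, 66.3 and 125 at day 12. The log2 ratio was 0.31 higher at day 12 (exact two-sided permutation p = 0.2 over 35 splits, Benjamini-Hochberg over 3 ratios 0.2) and 0.12 higher without day 12 replicate 4, the only library in which Rac2 counts exceeded those of Rac1.

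**Figure D3:**
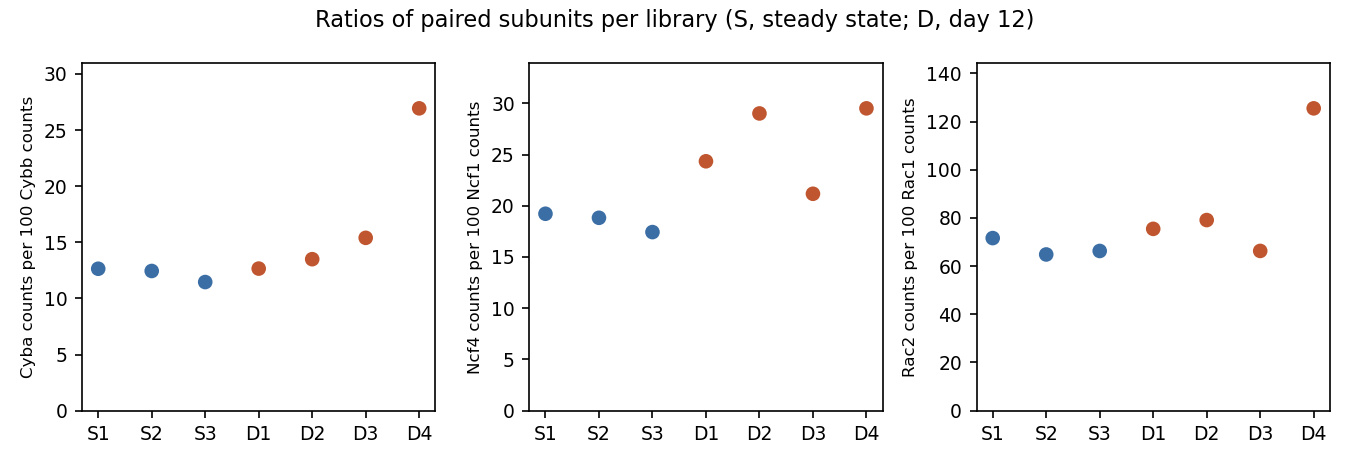
Counts of the first gene per 100 counts of the second (vertical axes, from 0) in steady-state libraries 1 to 3 (S) and day 12 libraries 1 to 4 (D); points are libraries. Day 12 replicate 4 is highest in every panel, at 26.9, 29.5 and 125.

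The 6 genes differed in how much they varied within groups. In steady state the coefficient of variation was 1.81% to 4.60%, below the median of 6.41% over 10560 genes with at least 5 CPM. The 6 genes lay at percentiles 86.6 to 99.8 of mean level among all genes tested. The medians given here for both groups are not matched for level. At day 12 it was 26.1% for Cyba, 27.0% for Ncf4 and 26.8% for Rac2, 15.7% for Ncf1, 12.9% for Cybb and 3.68% for Rac1, beside a median of 15.1%. Day 12 replicate 4 was the highest of its group for 4 genes (Cyba, Ncf1, Ncf4 and Rac2) and the lowest for the other two, Cybb and Rac1. The sum over the 6 genes was 4552 to 4675 CPM in steady state and 3971 to 4542 CPM at day 12. Cybb made up 66.0% to 66.9% of it in steady state, and 62.3%, 63.4%, 59.7% and 49.4% in day 12 replicates 1, 2, 3 and 4.

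**Figure D4:**
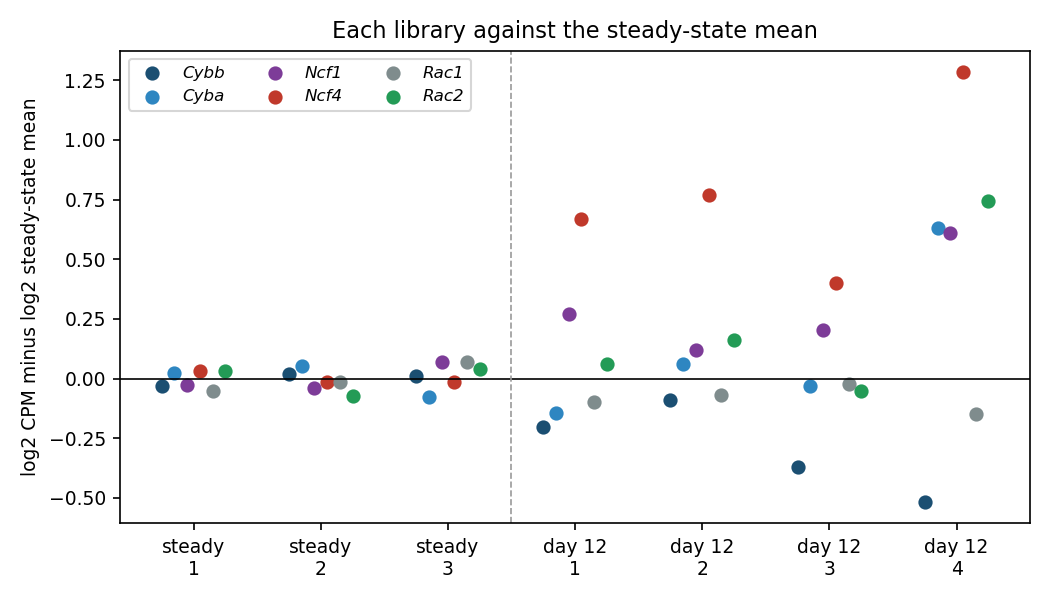
Log2 CPM of each gene minus the log2 of its steady-state mean (vertical axis) in each of the 7 libraries; colours are genes. Steady-state points lie within -0.08 to 0.07, and in day 12 replicate 4 Ncf4 reached 1.28 while Cybb fell to -0.52.

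Levels were compared between genes per kilobase of merged exons (GENCODE M21, matched by Ensembl identifier). In steady state the order was Cybb (528 ± 9.56 CPM per kb), Cyba (359 ± 16.5), Rac1 (104 ± 4.53), Rac2 (102 ± 4.40), Ncf1 (91.9 ± 3.81) and Ncf4 (30.8 ± 0.563 CPM per kb). The ranges of Rac1 and Rac2 overlapped, and those of the other neighbours did not. Of the 4496 merged exon bases of Rac1, 2309 overlap exons of Daglb. Since the strand setting of the counting is unknown, the place of Rac1 in the order is uncertain in both groups. At day 12 Cybb (433 ± 55.8 CPM per kb) and Cyba (401 ± 105) overlapped, and in replicate 4 Cyba, at 556 CPM per kb, exceeded Cybb at 369. Rac2 (123 ± 32.9), Ncf1 (114 ± 17.9) and Rac1 (98.4 ± 3.62 CPM per kb) overlapped as well, and Ncf4, at 54.2 ± 14.6 CPM per kb, remained the lowest.

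For each of the 6 genes the most alike patterns were sought by the root mean square difference of centred log2 CPM over the 7 libraries, among 9306 other protein-coding genes of at least 5 CPM. The nearest to Ncf4 were Parp10 (0.0508), Fam117a (0.0611) and Il15ra (0.0659), with log2 fold changes of 0.77, 0.90 and 0.87. The nearest to Cyba was Pfn1 (0.0359), to Cybb Gzf1 (0.0417), to Ncf1 Efhd2 (0.0340), to Rac1 Stxbp5 (0.0250) and to Rac2 Slc31a2 (0.0449). These are descriptions over 7 libraries that share the same groups and the same replicate 4.

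Other oxidases of the family were near or at 0. Of 9 genes for other NADPH oxidases and their own partners, 7 (Nox3, Nox4, Noxa1, Duox1, Duox2, Duoxa1 and Duoxa2) had no read in any library, which allows at most 0.0754 to 0.0958 CPM per library. Nox1 reached at most 0.212 CPM. Noxo1, the organiser that serves Nox1, was the 1 tested gene and stood at 1.25 to 2.11 CPM in steady state and 1.26 to 2.08 CPM at day 12, without passing.

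Of 11 tested genes that mature the membrane chains or support their work, 4 fell and 0 rose with edgeR (median log2 fold change -0.33), beside 10.2% lower and 10.1% higher among all genes tested. At an unadjusted edgeR p of 0.05 there were 5 lower and 1 higher, against 2737 lower and 2684 higher of 15981 genes tested. DESeq2 called 4 lower and 1 higher (1930 and 2051 of 27238 genes with a read). With limma-voom 4 were lower and 0 higher (1749 and 1472 of 15981 genes). Prdx6, a peroxiredoxin with phospholipase activity that supports oxidase activation, fell from 165 ± 23.4 to 76.6 ± 23.5 CPM (edgeR adjusted p = 0.00699). Hvcn1, the proton channel that balances the charge the oxidase moves, stood at 75.6 ± 8.21 CPM in steady state and fell to 46.5 ± 8.68 CPM; its adjusted p of 0.0105 became 0.0567 when steady-state replicate 3 was left out. Hsp90ab1, a chaperone, and Cybc1, which the membrane chains need to mature, made up the remainder and were picked with their values in view. Hsp90ab1 fell from 1082 ± 63.6 to 824 ± 15.7 CPM (edgeR adjusted p = 0.0243), a call lost without steady-state replicates 1, 2 or 3 (0.136, 0.113 and 0.0614), without day 12 replicates 1, 2 or 3 (0.0713, 0.0525 and 0.0595) and with no filter (0.0635). Cybc1 fell from 129.6 ± 5.84 to 100.0 ± 10.4 CPM (adjusted p = 0.0390), and its call was lost without steady-state replicates 1, 2 or 3 (0.184, 0.0992 and 0.112) and without day 12 replicates 1 or 2 (0.0835 and 0.0914). The falls numbered 2, 2 and 1 without steady-state replicates 1, 2 and 3, 2 without day 12 replicate 1, 2 without day 12 replicate 2 and 2 when genes of low count were kept.

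Of 21 tested genes for kinases, their subunits and phospholipases, 4 rose and 3 fell (median log2 fold change -0.04), where 10.1% of all genes rose and 10.2% fell. Some of these act on the cytosolic subunits, and others act on lipids or upstream. Prkca, a protein kinase C, rose from 27.5 ± 6.34 to 62.1 ± 12.2 CPM (edgeR adjusted p = 0.00372), and Irak4, a kinase of the Toll-like receptor pathway, from 80.7 ± 7.58 to 109 ± 7.35 CPM (adjusted p = 0.0208). Pik3cg, a phosphoinositide 3-kinase driven by G proteins, fell from 99.7 ± 6.93 to 53.1 ± 7.18 CPM (adjusted p = 0.00133), and Prkce from 22.2 ± 4.16 to 14.3 ± 1.29 CPM (adjusted p = 0.0154). The Irak4 call was lost without steady-state replicates 1 or 2 (0.0923 and 0.0993) or day 12 replicate 1 (0.0521), and that of Prkce without steady-state replicates 1 or 3 (0.0724 and 0.0829). The calls in this list numbered 2, 3 and 3 without steady-state replicates 1, 2 and 3.

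Among genes that regulate Rac or act with it, 10 of 26 tested genes fell and 4 rose (median log2 fold change -0.29), beside 10.2% and 10.1% of all genes. Fmnl1, a formin that acts with Rac on actin, fell from 103 ± 15.04 to 38.8 ± 4.76 CPM (edgeR adjusted p = 0.000232) and Swap70, a Rac-binding exchange factor, from 45.9 ± 3.00 to 25.2 ± 1.82 CPM (adjusted p = 0.000643). Dock5, an exchange factor for Rac, rose from 116 ± 3.33 to 215 ± 31.7 CPM (adjusted p = 0.00179). Chn2, a GTPase activating protein that turns Rac off, rose from 6.46 ± 1.45 to 15.95 ± 7.22 CPM (adjusted p = 0.0232), and lost its call without steady-state replicates 2 or 3 (0.0962 and 0.0938). The falls numbered 5, 6 and 5 without steady-state replicates 1, 2 and 3, 6 without day 12 replicate 1 and 7 without day 12 replicate 3.

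NADPH is the electron donor of the oxidase. Of 16 tested genes around its supply, 3 rose and 1 fell (median log2 fold change 0.29), against 10.1% and 10.2% of all genes tested. The list also holds pentose phosphate enzymes and NAD kinases, and not each of its enzymes makes NADPH itself. Me1, the cytosolic malic enzyme, rose from 5.69 ± 1.81 to 31.9 ± 11.4 CPM, a log2 difference of 2.48 (edgeR adjusted p = 0.00103), a call that held with each library left out in turn (highest adjusted p 0.00599). Me2, its mitochondrial relative, rose from 34.8 ± 0.495 to 50.2 ± 7.80 CPM (adjusted p = 0.0225), and Tkt, an enzyme of the pentose phosphate pathway that was picked with its values in view, reached 284 ± 60.6 CPM from 194 ± 11.7 (adjusted p = 0.0376). Nadk2, a mitochondrial NAD kinase, fell from 18.9 ± 1.57 to 13.9 ± 1.57 CPM (adjusted p = 0.0393). Me2, Tkt and Nadk2 lost their calls without steady-state replicate 1 (0.0717, 0.0988 and 0.0788), 2 (0.0809, 0.114 and 0.161) or 3 (0.0941, 0.149 and 0.122), so 1 call was left in each of these fits, and 2 were left without day 12 replicate 1. Without day 12 replicate 1 the adjusted p was 0.0528 for Me2 and 0.0619 for Nadk2, without replicate 3 it was 0.0501 and 0.0559, and without replicate 2 it was 0.0773 for Nadk2.

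Of 18 tested transcription factors known to act on oxidase promoters, 3 rose and 3 fell (median log2 fold change -0.14), against 10.1% and 10.2% of all genes. Irf8, an interferon regulatory factor of mononuclear phagocytes that acts on Cybb, fell from 126 ± 12.97 to 13.6 ± 6.04 CPM, a log2 difference of -3.21 (edgeR adjusted p = 0.000612). Irf1, another member of that family, rose from 90.6 ± 11.6 to 255 ± 98.3 CPM, a log2 difference of 1.49 (edgeR adjusted p = 0.00672). Cux1, a repressor of Cybb, rose from 90.1 ± 8.30 to 234 ± 42.5 CPM (adjusted p = 0.000498), and Runx1 fell from 43.1 ± 3.29 to 25.9 ± 1.49 CPM (adjusted p = 0.00135). These 4 calls held with each library left out in turn, with a highest adjusted p of 0.0366 for Irf1.

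**Figure D5:**
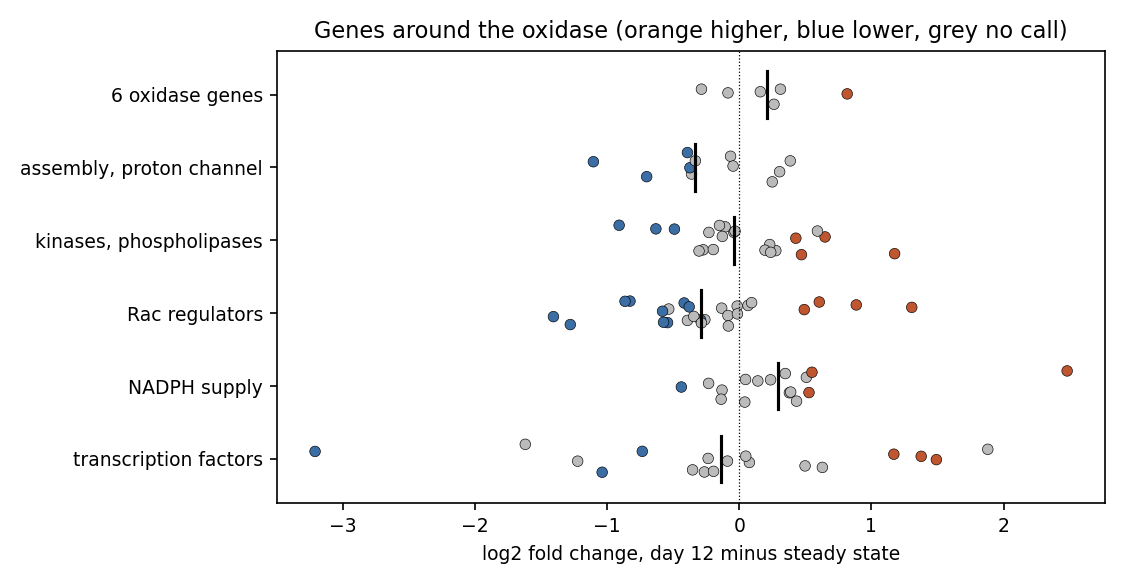
Log2 fold changes (horizontal axis, day 12 minus steady state) of the tested genes of the oxidase set and of 5 lists around it; points are genes, vertical bars are list medians, and colours mark calls at an adjusted p of 0.05. Irf8 lies farthest to the left at -3.21 and Me1 farthest to the right at 2.48.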

How the data were processed

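The authors deposited raw read counts per Ensembl gene, without normalisation, 1 column per library. Per the submitters' processing notes, STAR 2.7.11a, featureCounts (Subread 2.0.6), SAMtools 1.10, FastQC and DESeq2 1.40.2 were used with GRCm39. The sources used here do not state the annotation release, the strand setting or how multimapping reads were counted, and these settings bear on overlapping genes such as Rac1 and Ncf1. Groups came from the sample titles. The labels speak of biological replicates, and each p-value reflects variation among these 7 libraries.

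Counts were fitted over all genes with edgeR 4.0.16 (quasi-likelihood, robust, TMM, R 4.3.3) after filterByExpr (minimum count 10, minimum total 15), with Benjamini-Hochberg adjustment at 0.05. Standard errors and intervals were derived from each log2 fold change and its F value. Alternatives were other scalings and filters, DESeq2 1.42.0, limma-voom (limma 3.58.1), a replicate block and leaving out each library. The procedure was tested on simulated counts that gave each gene the same dispersion in both groups. In the real libraries the median coefficient of variation was 6.41% in steady state and 15.1% at day 12. The simulation therefore does not check calls under this unequal spread. Floors cover counting error only. Log2 ratios of subunits within a library were compared by an exact permutation test. All 6 members are named. From each list around the oxidase up to 2 called genes per direction, those of lowest p, are named, and others are marked where they appear. The members and lists were chosen with earlier results of these data known, and the promoter words after the sequences had been seen. Promoters came from RefSeq (GRCm38.p6) and exon lengths from GENCODE M21 (GRCm38), and coordinates of genes are those of the deposited table. Of the list symbols, Nnt has a second row without reads, which was not used.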

Additional observations from a re-analysis of the deposited data

How the results depend on the processing

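The count of all genes called (3242) was 1761 to 4599 over the fits that left out 1 library, and the count of the 6 oxidase genes called was 0 to 1. It was 0 without each steady-state library and 1 (Ncf4) without each day 12 library. With RLE size factors, no scaling factor, DESeq2, limma-voom, no filter or a filter of 1 CPM, 1 of the 6 genes was called and none of the 6 changed direction. The log2 fold change of Cyba was -0.036 to 0.27 with 1 library left out, reversed only without day 12 replicate 4, and -0.037 under the replicate block, which lacks that library. Among the list genes named in the report, calls lost with no filter were those of Chn2, Nadk2, Hsp90ab1 and Cybc1 (edgeR adjusted p = 0.0512, 0.0522, 0.0635 and 0.0538), and Cybc1 was also lost with the filter of 1 CPM (0.0523). Whether the shared replicate numbers pair the libraries is not known. Deviations from the group means correlated at -0.171, 0.0326 and 0.252 for numbers 1, 2 and 3 over 15981 genes. Not every library correlated best with its own number, though those numbered 3 did. Deviations within a group sum to 0, so these values cannot exclude pairing. With the replicate block over libraries 1 to 3, 4246 genes passed, among them 1 oxidase gene. The block called 7 of 11 genes of the assembly list, 5 lower and 2 higher, and the calls of Prkce (edgeR adjusted p = 0.0547) and Nadk2 (0.05) were lost under it. The 3 subunit ratios kept their direction with each library left out. Depth did not limit the 6 genes, which had at least 1924 counts in every library.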

Other observations

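The gap between day 12 replicate 4 and its nearest neighbour, divided by the range of the 4 day 12 libraries, was 0.786 for Cyba, 0.785 for Rac2, 0.723 for Ncf1 and 0.655 for Ncf4. Each lies below Dixon's 95% critical value for 4 samples. Prtn3, a serine protease gene of granulocyte precursors, had its highest value, 456 CPM, in the same library, against 190 to 248 CPM in the other day 12 libraries and 120 to 127 CPM in steady state, while Elane, its neighbour in granules, stayed at 0.356 to 0.900 CPM over all 7 libraries.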
